A study of Mus musculus with 6 samples.

Results

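The genes of DNA replication and origin licensing were followed in mouse lymphoma cells carrying a hairpin against Dhx9. They encode the origin recognition complex and its loading factors, the MCM helicase and its activators, the replicative polymerases and primase, the clamp loader, and the proteins that finish new strands and package them. The list held 44 gene symbols, named for their role in replication, and probe sets were matched to them by current or former symbol. Of these genes, 43 were measured among 18784 genes tested, and Pcna was not analysed here. All 43 had a level no lower than the median of all genes, so a filter on dim genes removed no member.

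RNA came from cultured B cell lymphomas of the genotype Arf-/-Eu-myc/Bcl-2, which lack the tumour suppressor Arf and carry Eu-myc and Bcl-2. Eu-myc places the MYC oncogene under an immunoglobulin enhancer that is active in B cells. Cells of both groups grew on irradiated Arf-/- embryonic fibroblasts and were transduced with a single hairpin, either the control Rluc.713 (3 arrays) or Dhx9.1241 (3 arrays). The labels name no drug and no age, and only 1 hairpin was used for each group. Nothing in the labels says that the arrays of a group came from separate cultures, so p-values measure the spread between arrays, which may be technical.

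Before S phase, the origin recognition complex, CDC6 and CDT1 load the MCM2-7 ring onto DNA, a step called licensing, and geminin blocks CDT1 afterwards. The kinases CDC7 and CDK2 then help to recruit CDC45 and the GINS complex, which turn the ring into an active helicase. Polymerase alpha with primase starts each strand, the clamp loader RFC places PCNA, and polymerases epsilon and delta extend the strands. Many of these genes are targets of E2F factors and are well expressed in dividing lymphocytes.

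Dhx9, the helicase gene named by the hairpin, was read at 12.41, 12.48 and 12.36 on the log2 scale of the array values (robust multi-array average, RMA) in Rluc.713 against 11.46, 11.43 and 11.38 with Dhx9.1241. Its log2 change, here and below the mean of Dhx9.1241 minus that of Rluc.713, was -0.99 (SE 0.053, limma adjusted p = 0.000129). Adjusted p-values follow Benjamini and Hochberg over the whole table, and a gene was called under 0.05. Dhx29, which some sample titles name, had a change of 0.04 (adjusted p = 0.857). All 10 measured B cell markers reached the median level of all genes, against 8 of 19 fibroblast markers, 7 of 15 myeloid markers and 1 of 15 T and NK cell markers. Markers of other cells moved with the hairpin in part. Of the 15 measured myeloid markers, 6 fell and none rose, where 3.14% of all genes were called. Lyz2 had the largest fall of all genes tested (-1.31, limma adjusted p = 0.000129), and Csf1r (-0.45) and Tyrobp (-0.37) were also called. Before adjustment (p under 0.05), 2 myeloid markers were higher (Fcgr3 at 0.22 and Itgam at 0.21) and 7 lower, against 14.1% of all genes. The log2 of the summed level of the myeloid markers was 13.92 to 14.01 in Rluc.713 and 13.67 to 13.75 in Dhx9.1241. The brightest of them, Cybb, had a mean of 12.39 and then 12.04 and was called (-0.35, limma adjusted p = 0.0177). On the scale of summed levels the fibroblast markers were at 14.25 to 14.28 and 14.31 to 14.37, with 1 marker called lower. The brightest of them, Vim, had a mean of 13.79 and then 13.92 and did not pass (0.13, adjusted p = 0.227). In the mean 11 of the 19 were lower, 3 of them and 1 higher marker were at an unadjusted p under 0.05, and the median change was -0.025. The T and NK markers were at 12.87 to 12.91 and 12.86 to 12.94, with no marker called and 1 higher at an unadjusted p under 0.05. The brightest of them, Cd2, had a mean of 12.34 and then 12.35 and was the 1 marker that reached the median level. The part of these cells in the results below was not tested, and in a bulk sample fewer cells of a type and less RNA per cell cannot be told apart.

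Most replication genes lay close to their control level. At an adjusted p under 0.05, 1 of the 43 members fell, none rose and 42 did not pass. Over all genes, 3.14% were called, 1.07% lower and 2.07% higher. The call was that of Chaf1b. Leaving out Rluc.713 replicate 1 gave 2 calls among members (Rfc2 and Orc2) and 4.77% over all genes. Leaving out Rluc.713 replicate 3 gave 1 call (Chaf1b) and 1.54%. Leaving out Rluc.713 replicate 2, or a single Dhx9.1241 array, gave 0 calls and 1.09% to 1.33%. In each of the last 4 fits, 7 members and 10.4% to 11.9% of all genes were at an unadjusted p under 0.05. The median log2 change of the members was -0.0021, against 0.0049 over all genes, and the members ranged from -0.27 to 0.17. In the mean, 21 members lay above their control and 22 below. At an unadjusted p under 0.05 there were 2 higher members and 7 lower, 20.9% of the 43, where 14.1% of all genes were past this threshold, 8.50% higher and 5.63% lower. When genes under the median level were left out, which removed no member, 11 of the 43 members and 25.3% of the genes tested were past it. The 3 arrays of one group lay wholly above or below those of the other for 15 members (34.9%), 6 higher and 9 lower, against 20.1% of all genes, 11.6% higher and 8.51% lower. This share was not taken over genes at or above the median level alone, so the 2 percentages compare genes of unlike level.

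The 95% interval of a member reached, in the median, 0.12 on the log2 scale to either side of its change. For 41 of the 43 members the whole interval lay between a 1.25-fold fall and a 1.25-fold rise (a log2 change of 0.32 either way). The same held for 86.9% of all genes, which include those under the median level. The exceptions were Chaf1b and Orc2, whose intervals reached -0.41 and -0.34. The plot of changes by role gives every member with its interval.

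**Figure D1:**
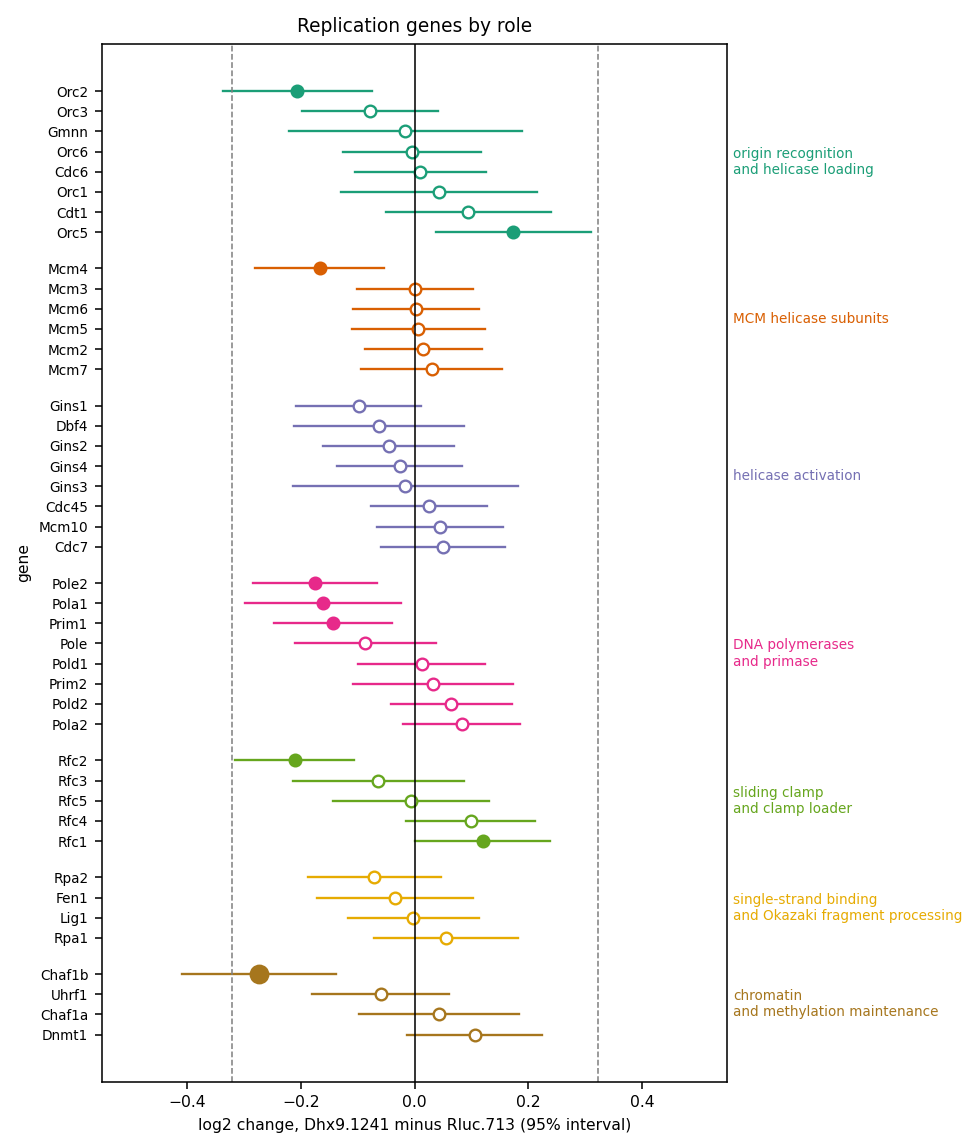
Log2 change (Dhx9.1241 minus Rluc.713, horizontal axis) of the 43 measured replication genes, grouped and coloured by role; lines are 95% intervals from limma, filled points are at an unadjusted p under 0.05, the larger point is the gene called at an adjusted p under 0.05, and dashed lines mark a 1.25-fold change. Most intervals cross 0, and Chaf1b (-0.27) and Orc5 (0.17) are the extremes.

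Chaf1b was the member that fell. It encodes the middle subunit of CAF-1, the chaperone that deposits histones H3 and H4 on newly copied DNA. Its log2 level was 11.20, 11.21 and 11.04 in Rluc.713 and 10.90, 10.85 and 10.87 in Dhx9.1241. All Dhx9.1241 arrays lay below all controls, of which replicate 3 was the lowest. The change was -0.27 (SE 0.059, 95% interval -0.41 to -0.14, limma adjusted p = 0.0494), a level 1.21-fold lower. The call was close to the threshold: of the 6 fits that each dropped an array, only the one without Rluc.713 replicate 3 kept it (adjusted p = 0.0359), and the other 5 gave 0.0608 to 0.187. A repeated quantile normalization also ended it (0.0505).

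Chaf1a, which encodes the large subunit of the same chaperone, stood at 10.38, 10.48 and 10.59 in the controls and 10.56, 10.51 and 10.50 in Dhx9.1241. Its groups overlapped, and its change was 0.043 (interval -0.10 to 0.18). The remaining chromatin genes act on DNA methylation behind the fork. Dnmt1, the maintenance methyltransferase, was at 12.35, 12.40 and 12.48 and then at 12.54, 12.51 and 12.49. Its arrays did not overlap, yet its change of 0.11 did not pass (SE 0.052, adjusted p = 0.438). Uhrf1, which brings DNMT1 to newly copied DNA, had a change of -0.060 (interval -0.18 to 0.060).

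In the clamp loader, Rfc2 lay just outside the threshold. RFC is a ring of a large subunit, encoded by Rfc1, and 4 small ones, which opens PCNA and closes it around DNA. Rfc2 was at 10.75, 10.81 and 10.78 in Rluc.713 and at 10.58, 10.56 and 10.56 in Dhx9.1241. These arrays were tightly grouped and wholly apart, with a change of -0.21 (SE 0.046, interval -0.32 to -0.11, adjusted p = 0.0503). Rfc2 was called in 6 of the 9 alternative fits with all arrays, among them a repeated quantile normalization (0.0193) and cyclic loess (0.0186). It was also called without Rluc.713 replicate 1 (0.0327), but in no other fit that dropped an array.

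The large subunit gene Rfc1 was at 11.10, 11.21 and 11.22 in the controls and at 11.30, 11.32 and 11.27 in Dhx9.1241, higher on all 3 arrays. Its change was 0.12 (SE 0.052, adjusted p = 0.353). Rfc4 was also higher in the mean, at 0.10 (interval -0.015 to 0.21), with groups that did not overlap. Rfc3 (-0.064) and Rfc5 (-0.0061) lay nearer 0 and their groups overlapped. Of the 5 measured clamp loader genes, none passed the threshold. At an unadjusted p under 0.05, 1 was higher and 1 lower, where 14.1% of all genes were past it.

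The polymerase and primase genes held 3 of the 7 members that were lower at an unadjusted p under 0.05, and none of the 8 passed after adjustment. Over all genes, 5.63% were lower at that threshold. In the mean, 4 of the 8 lay above their control and 4 below. Pole2, which encodes the second subunit of the leading-strand polymerase epsilon, was at 11.23, 11.27 and 11.23 in Rluc.713 and at 11.10, 11.02 and 11.10 in Dhx9.1241. The groups did not overlap, and the change was -0.18 (SE 0.048, adjusted p = 0.111). Prim1, the catalytic subunit gene of primase, which makes the RNA primers, was at 11.02, 11.05 and 11.04 and then at 10.92, 10.89 and 10.87, again apart, with a change of -0.14 (SE 0.045, adjusted p = 0.169).

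Pola1 encodes the catalytic subunit of polymerase alpha, which extends those primers. It was at 10.75, 10.77 and 10.80 in the controls and at 10.67, 10.50 and 10.67 in Dhx9.1241. Replicate 2 of Dhx9.1241 was the lowest, and the change was -0.16 (SE 0.060, adjusted p = 0.255). The catalytic subunit gene of polymerase epsilon, Pole, had a change of -0.087 (interval -0.21 to 0.037). The others were above 0 in the mean. These were Pola2 at 0.083, the accessory subunit gene of polymerase delta Pold2 at 0.065, Prim2 at 0.033 and the catalytic subunit gene Pold1 at 0.013. The arrays of Pola2 and Pold2 did not overlap between groups.

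Origin recognition genes lay in both directions by mean, and none of the 8 genes of recognition and loading passed. Orc2 was at 11.71, 11.83 and 11.83 in Rluc.713 and at 11.63, 11.51 and 11.62 in Dhx9.1241, a change of -0.21 (SE 0.057, adjusted p = 0.117). Orc5, another subunit of the same complex, was at 11.08, 11.21 and 11.18 and then at 11.34, 11.26 and 11.40, a change of 0.17 (SE 0.059, adjusted p = 0.21). Neither gene had overlapping groups. Orc2 was called in 5 of the 9 alternative fits with all arrays. It was also called without Rluc.713 replicate 1 (adjusted p = 0.0425), but in no other fit that dropped an array.

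The other subunit genes were Orc3, with a change of -0.078 and groups that did not overlap, Orc6 (-0.0047) and Orc1 (0.043). Cdc6, the loading ATPase gene, had a change of 0.010. Cdt1, its partner in loading the ring, was at 11.49, 11.57 and 11.67 in the controls and at 11.67, 11.74 and 11.59 in Dhx9.1241, which overlapped (0.095, interval -0.050 to 0.24). Gmnn, the gene of the CDT1 inhibitor geminin, was the least precise member. Its mean was 9.06 in the controls (SD 0.173) and 9.04 with the Dhx9 hairpin (SD 0.088), with a change of -0.016 (SE 0.089).

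**Figure D2:**
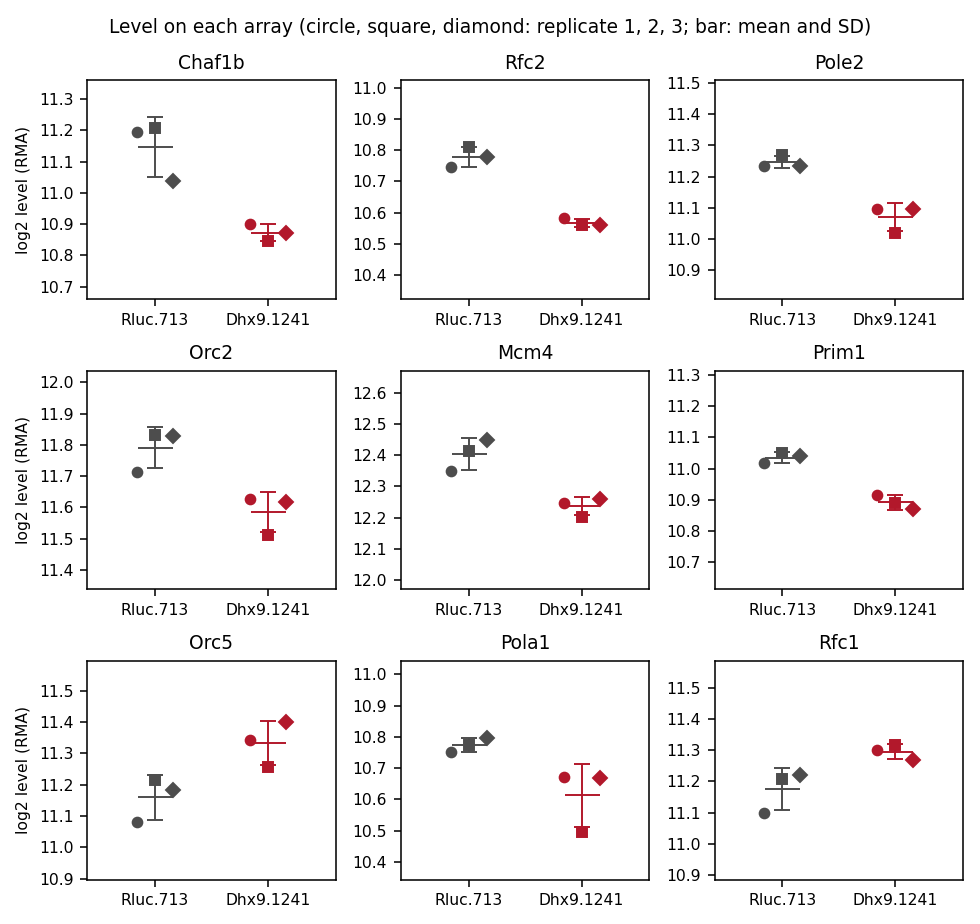
Log2 level (vertical axis, RMA values) on each array for the 9 members at an unadjusted p under 0.05, with Rluc.713 in grey and Dhx9.1241 in red; bars give the mean and SD of 3 arrays, and each panel spans the same height. Orc5 and Rfc1 are higher and the other 7 lower in Dhx9.1241. The groups of all 9 genes are apart, which their choice by p on these same arrays favours, and 20.1% of all genes are apart.

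Within the MCM ring, 5 of the 6 genes had log2 changes between 0.00081 and 0.030, and none passed the threshold. Mcm4 was at 12.35, 12.41 and 12.45 in Rluc.713 and at 12.25, 12.20 and 12.26 in Dhx9.1241. Its groups were apart, and its change was -0.17 (SE 0.049, interval -0.28 to -0.054, adjusted p = 0.142). The ring is built from equal numbers of its subunits. Mcm7 was at 12.51, 12.54 and 12.65 and then at 12.63, 12.58 and 12.57, with groups that overlapped and a change of 0.030 (interval -0.093 to 0.15). Mcm3 had the smallest change of all members, 0.00081 (interval -0.10 to 0.10). Mcm6 (0.0029), Mcm5 (0.0067) and Mcm2 (0.015) had intervals between -0.11 and 0.12.

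None of the 8 helicase activation genes passed, and none was at an unadjusted p under 0.05. Over all genes these shares were 3.14% and 14.1%, so few would be looked for among 8 genes. Gins1, of the 4-part GINS complex that joins CDC45 and the MCM ring, was at 10.75, 10.78 and 10.84 in Rluc.713 and at 10.70, 10.67 and 10.70 in Dhx9.1241. The groups did not overlap, and the change was -0.098 (SE 0.048, adjusted p = 0.44). The other GINS genes were Gins2 (-0.046), Gins4 (-0.026) and Gins3 (-0.016). Dbf4, the regulatory partner gene of the kinase CDC7, was at 11.54, 11.69 and 11.63 and then at 11.58, 11.45 and 11.64, which overlapped (-0.062). Cdc7 itself had a change of 0.050, the origin firing factor gene Mcm10 one of 0.044 and Cdc45 one of 0.025.

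The single-strand binding and fragment processing genes also lay near their controls, with none of 4 at an unadjusted p under 0.05 and overlapping groups for all 4. Over all genes, 14.1% were past that threshold and 20.1% had groups that did not overlap. Rpa2, of the complex that coats unwound DNA, was at 11.33, 11.28 and 11.40 in Rluc.713 and at 11.23, 11.29 and 11.28 in Dhx9.1241 (-0.071, interval -0.19 to 0.046). Rpa1, its large subunit gene, was at 11.35, 11.49 and 11.46 and then at 11.51, 11.44 and 11.51 (0.055, interval -0.071 to 0.18). Fen1, the flap endonuclease gene of Okazaki fragment maturation, had a change of -0.035, and Lig1, the ligase gene that seals the fragments, one of -0.0021.

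Several complexes held a gene lower in the mean beside one higher in the mean. For pairs picked after their values were seen, the shift of the log2 ratio within arrays was -0.38 for Orc2 over Orc5, -0.33 for Rfc2 over Rfc1, -0.32 for Chaf1b over Chaf1a, -0.24 for Pola1 over Pola2 and -0.18 for Prim1 over Prim2. In all 5 pairs the ratios of the 2 groups did not overlap. This had to be so for Orc2 over Orc5, Rfc2 over Rfc1 and Pola1 over Pola2, whose single genes were apart in opposite directions. Since the pairs were picked on these values, the shifts and the lack of overlap are descriptions with no test.

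The arrays of a group shared part of their spread over the members. Rluc.713 replicate 1 had the lowest control level for 30 of the 43 members, and its median distance from the control mean was -0.040 on the log2 scale. Over all genes that distance was 0.0082. The median of all probe sets was 8.51 on this array and 8.43 on Rluc.713 replicates 2 and 3. Whether other genes of like level were also low on it was not tested. Dhx9.1241 replicate 2 was the lowest of its group for 25 members, with a median distance of -0.022 from its group mean. The heat map shows both as bluer columns than their neighbours. Without Rluc.713 replicate 1 the median change of the members was -0.025, against 0.022 over all genes, and at an unadjusted p under 0.05 there were 1 higher member and 10 lower, with 22% of all genes past it. Without Dhx9.1241 replicate 2 the median was 0.0084, these counts were 1 and 6, and the share of all genes was 10.4%. The part of this shared spread in the results was not tested. Spread between arrays was small: the median SD of a member was 0.053 in Rluc.713 and 0.037 in Dhx9.1241, against 0.079 and 0.059 over all genes. All genes include those under the median level, and the SD was not taken over genes of like level.

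**Figure D3:**
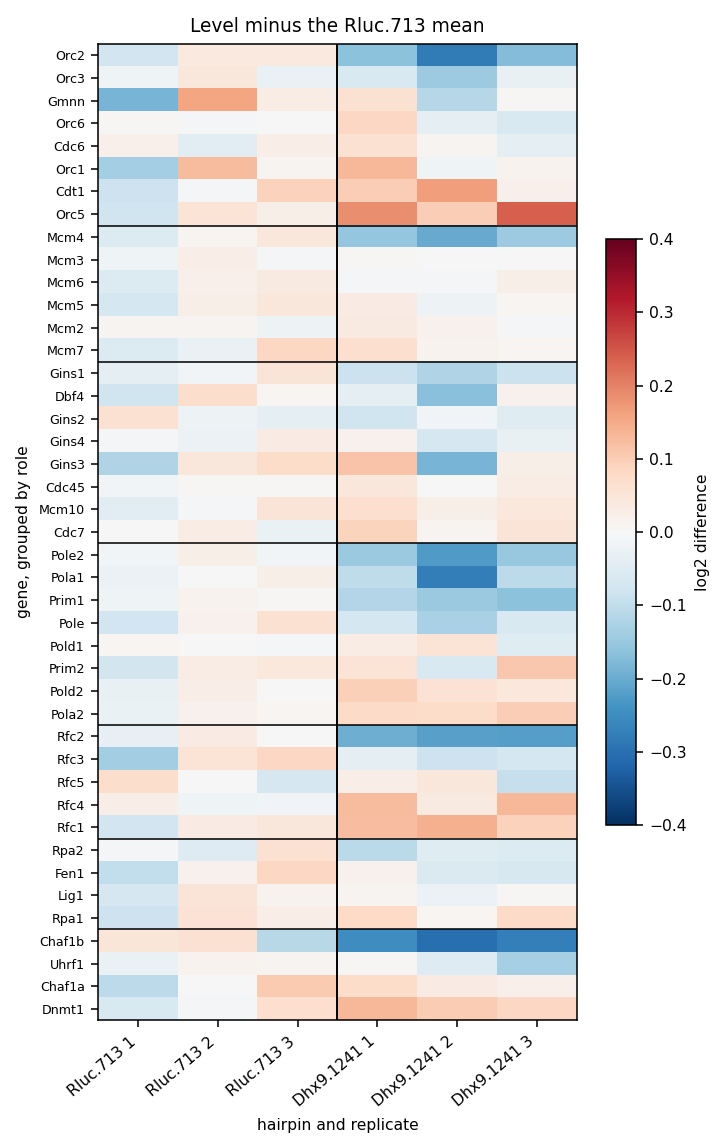
Log2 level of each replication gene (rows, grouped by role and sorted by change) on each array (columns) minus the mean of the 3 Rluc.713 arrays; blue is lower and red higher, on a scale from -0.4 to 0.4. Chaf1b, Rfc2, Orc2 and Pole2 are blue on all 3 Dhx9.1241 arrays, and the MCM rows other than Mcm4 stay pale.

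The promoter windows of 4 members are shown to set the sequence of the gene that fell beside those of 2 polymerase genes that were lower in the mean and of the member with the smallest change. The windows are from RefSeq on GRCm38.p6 and run from 250 bases before to 50 after the start of the gene, which gives 300 bases, 5′ to 3′ on the strand of the gene. Chaf1b lies on the plus strand at chr16:93883651-93883950, Pole2 on the minus strand at chr12:69228141-69228440, Pola1 on the minus strand at chrX:93632106-93632405 and Mcm3 on the minus strand at chr1:20820263-20820562. Capitals mark matches to the E2F words TTTGGCGC, TTTCCCGC, TTTCGCGC and TTTGCCGC and to the CCAAT box, on either strand.
Chaf1b: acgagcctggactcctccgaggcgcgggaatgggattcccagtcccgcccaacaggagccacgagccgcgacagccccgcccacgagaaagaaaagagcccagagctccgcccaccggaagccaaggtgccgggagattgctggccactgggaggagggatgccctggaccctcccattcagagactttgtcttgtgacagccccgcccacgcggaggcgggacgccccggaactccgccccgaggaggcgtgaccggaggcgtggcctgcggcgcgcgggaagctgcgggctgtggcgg
Pole2: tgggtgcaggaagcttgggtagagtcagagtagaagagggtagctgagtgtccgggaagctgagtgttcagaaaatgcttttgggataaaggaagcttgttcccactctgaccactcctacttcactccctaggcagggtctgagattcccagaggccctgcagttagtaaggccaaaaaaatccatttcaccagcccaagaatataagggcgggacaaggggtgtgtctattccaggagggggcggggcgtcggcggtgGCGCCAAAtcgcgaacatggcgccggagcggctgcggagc
Pola1: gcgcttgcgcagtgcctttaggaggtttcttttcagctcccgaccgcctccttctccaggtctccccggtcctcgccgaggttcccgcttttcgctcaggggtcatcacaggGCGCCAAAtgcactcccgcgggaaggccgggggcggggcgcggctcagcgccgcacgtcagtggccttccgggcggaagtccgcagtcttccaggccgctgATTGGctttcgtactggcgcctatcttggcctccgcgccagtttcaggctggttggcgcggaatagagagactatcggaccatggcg
Mcm3: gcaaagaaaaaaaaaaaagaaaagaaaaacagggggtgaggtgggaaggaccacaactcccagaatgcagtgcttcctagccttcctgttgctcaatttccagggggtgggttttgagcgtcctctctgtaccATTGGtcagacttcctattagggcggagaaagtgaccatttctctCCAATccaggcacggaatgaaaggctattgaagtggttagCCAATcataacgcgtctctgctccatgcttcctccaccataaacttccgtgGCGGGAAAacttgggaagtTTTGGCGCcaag

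The Mcm3 window held 2 E2F words after the start and 3 CCAAT boxes before it. Pola1 held 1 E2F word, which began 138 bases before the start, and 1 CCAAT box at 37 bases before it. Pole2 held 1 E2F word, after the start, and no CCAAT box. The Chaf1b window held none of these words. Of the 43 members, 35 had a window, and 16 of them (45.7%) held an E2F word, against 2.60% of the 27025 genes in the table and 2.26% of all windows. A CCAAT box was in 21 of the 35 (60.0%), against 41.1% of genes and 37.4% of windows. The E-box CACGTG, the word MYC and its partners bind, was in 6 (17.1%), against 8.09% of genes and 7.15% of windows. None of these words overlap in the windows shown.

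The changes of members with and without an E2F word are described without a test. The 16 with a word had a median log2 change of 0.0019 and ranged from -0.18 to 0.11, with 2 at an unadjusted p under 0.05. The 19 without had a median of 0.025 and ranged from -0.27 to 0.17, with 5 at that threshold. A match is a description of these letters and not a binding site, and the absence of one says only that the letters are not in this window.

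Genes that work beside these members were taken from 4 further lists. Of 40 other fork and origin factors, all measured, 2 fell, none rose and 38 did not pass, where 3.14% of all genes were called, 1.07% lower. Both are small accessory subunits of replicative polymerases. Pold4, the smallest subunit gene of polymerase delta, was at 11.60, 11.62 and 11.60 in Rluc.713 and at 11.35, 11.26 and 11.31 in Dhx9.1241, a change of -0.30 (SE 0.048, interval -0.41 to -0.19, adjusted p = 0.0146). Pole4, a histone-fold subunit gene of polymerase epsilon, was at 12.05, 12.14 and 12.08 and then at 11.82, 11.78 and 11.81, a change of -0.28 (SE 0.048, interval -0.39 to -0.17, adjusted p = 0.0186). All Dhx9.1241 arrays lay below all controls for both genes. Of the 6 fits that dropped an array, only the one without Rluc.713 replicate 1 kept these calls, and adjusted p reached 0.0754 for Pold4 and 0.0945 for Pole4.

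Their neighbours Pold3 (-0.038) and Pole3 (-0.040) did not pass. Over all genes, 14.1% were at an unadjusted p under 0.05, 8.50% higher and 5.63% lower. The fit without genes under the median level had 25.3%. The list of fork and origin factors held 5 higher genes and 8 lower at that threshold (32.5%), and its median change was -0.036. Among those not called were Rnaseh2a, the catalytic subunit gene of RNase H2 (0.25, SE 0.054, adjusted p = 0.0561), the histone chaperone gene Asf1b, which hands histones to CAF-1 (-0.19, SE 0.046, adjusted p = 0.0797), and Mcm9 (-0.21, adjusted p = 0.209).

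None of the 21 measured nucleotide supply genes (of 22) passed. At an unadjusted p under 0.05 there were 2 higher and 3 lower (23.8%, against 14.1% of all genes), and the median was -0.035. In the fit without genes under the median level, 25.3% of the genes tested were past that threshold. The largest changes were those of Mthfd2, a mitochondrial enzyme gene of one-carbon metabolism (-0.21, SE 0.047, adjusted p = 0.0584), and Tk1, thymidine kinase (-0.16, adjusted p = 0.239). Rrm1 and Rrm2, the subunit genes of ribonucleotide reductase, were at -0.14 and -0.13. Of 22 S phase regulators, 1 rose and none fell, where 2.07% of all genes were called higher. Before adjustment, 3 of these regulators were higher and 4 lower at a p under 0.05, and the median was -0.041. Their share was 31.8%, against 14.1% of all genes and 25.3% in the fit without genes under the median level. The gene that rose was Cdkn1a, the inhibitor of cyclin-dependent kinases, at 11.81, 12.00 and 12.03 in Rluc.713 and 12.37, 12.46 and 12.41 in Dhx9.1241 (0.47, SE 0.067, adjusted p = 0.00954), a call lost without Dhx9.1241 replicate 3 (0.0545).

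Cdk2, the kinase of S phase entry, had a change of -0.19 (adjusted p = 0.0862), and Skp2, a ubiquitin ligase subunit gene, of 0.21 (adjusted p = 0.0577), neither past the threshold. None of 10 measured checkpoint genes of 11 passed, with 2 lower at an unadjusted p under 0.05. That is 20%, against 14.1% of all genes and 25.3% in the fit without genes under the median level. Their median was 0.0041. The largest changes there were Etaa1, an activator gene of the checkpoint kinase ATR (-0.18), and Rad1, of the checkpoint clamp (0.17). The plot of the lists sets these genes beside the members.

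**Figure D4:**
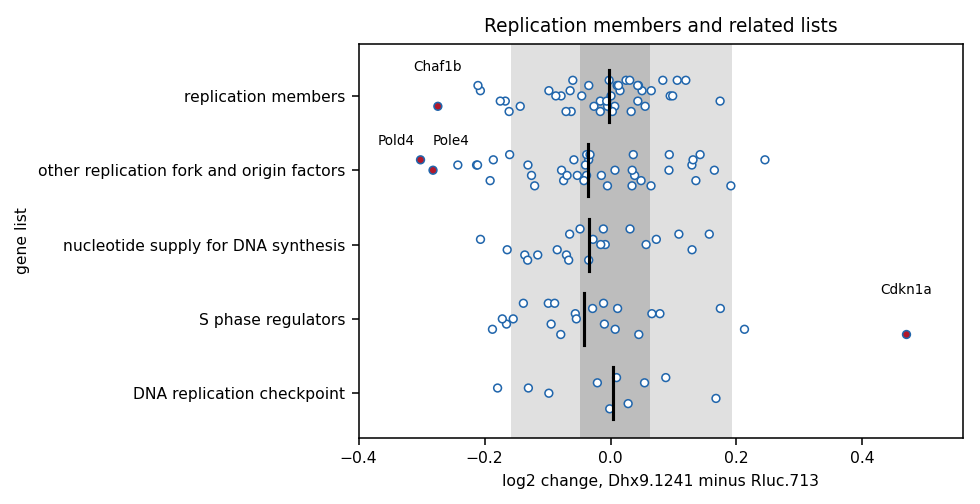
Log2 change (horizontal axis) of the 43 replication members and of 4 related gene lists; each circle is a gene, red circles are called at an adjusted p under 0.05 and named, black bars are list medians, and the dark and light grey bands hold the middle 50% and 90% of all genes. Most circles lie in the light band (-0.16 to 0.19), and the list medians lie between -0.041 and 0.0041.

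How many members passed depended on the setting. The 5 members that passed in at least 1 of the fits were Chaf1b, Rfc2, Orc2, Pole2 and Mcm4, all lower in Dhx9.1241. All 5 passed in 3 fits: when genes under the median level were left out, when the variance followed a trend and was estimated robustly, and when the arrays were weighted. In those fits 10.6%, 6.06% and 6.45% of the genes tested were called. No member was called higher in any of the 15 alternatives. The 9 members at an unadjusted p under 0.05 kept their direction in all 15. With each array centred on its median, which moved the median change of all genes from 0.0049 to -0.021, the 2 higher members Orc5 and Rfc1 were no longer at that threshold.

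**Figure D5:**
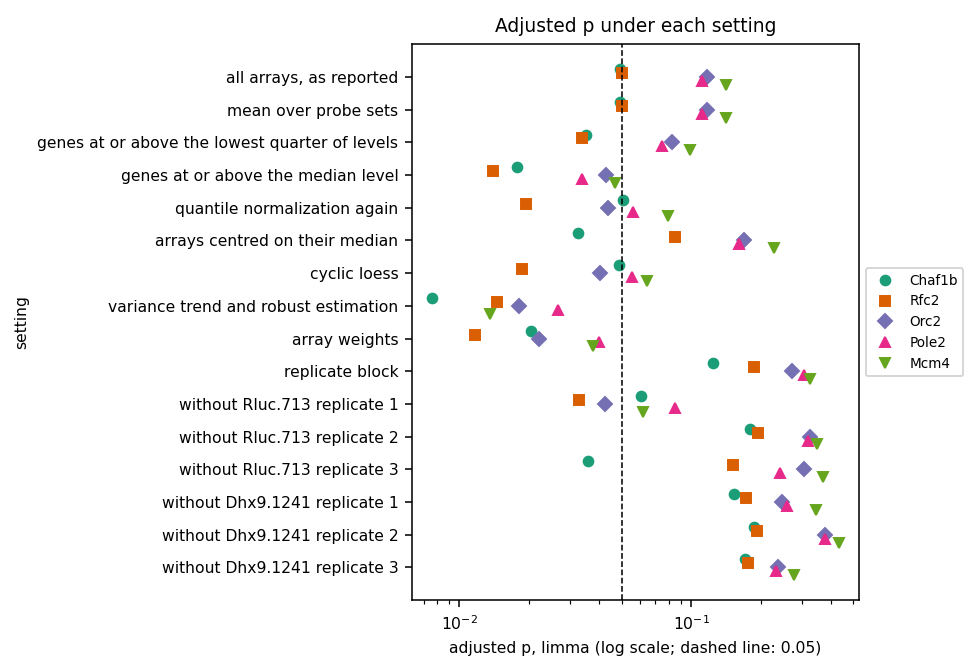
Adjusted p (horizontal log axis, limma) of the 5 members called in at least 1 fit, under the reported fit and 15 alternatives (vertical axis); the dashed line is 0.05. Chaf1b and Rfc2 sit at the line in the reported fit (0.0494 and 0.0503), and most points of the fits that dropped an array lie to the right of it.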

How the data were processed

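The authors made the deposited log2 values, 1 for each probe set on each array, by RMA, per the submitters' processing notes. RMA normalizes the probe intensities of all arrays to 1 distribution and can compress differences. The deposited values still had array medians from 8.43 to 8.51. Neither the RMA settings nor the genome build is given in the sources used here. Depth has no meaning for arrays, and the number of arrays limits the precision.

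Of 21212 probe sets, 18786 had 1 gene symbol, 6 had several and 2420 are unnamed here. Symbols were updated by Entrez number through a RefSeq table of GRCm38.p6. For 2 genes with more than 1 probe set the set with the highest mean was used. Dhx9.1241 was compared with Rluc.713 by a fit over all 18784 genes with limma 3.58.1 in R 4.3.3, with no covariate, and adjusted by the Benjamini-Hochberg method. All p-values are two-sided and from limma, those of alternatives from the fit named beside them. The code was checked on simulated data. Arrays were given for members at an unadjusted p under 0.05 and for the 2 members with the largest change in each role; those of Chaf1a and Cdt1 are given too, chosen after their values were seen. In other lists, called genes or the 2 largest changes were named; further genes of those lists were picked after their values were seen. The members and lists were chosen with earlier results of these data known, so no list was tested as a whole.

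Alternatives were the mean over probe sets, 2 filters on dim genes, 3 normalizations, a variance trend with robust estimation, weighted arrays, the replicate number as a block, and leaving out each array. Same-numbered arrays did not deviate together (r = -0.27, -0.34 and 0.24 over genes), so the numbers were not taken as pairs.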

Additional observations from a re-analysis of the deposited data

How the results depend on the processing

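The count of replication genes called was 1 with all arrays, as with the mean over probe sets and with arrays centred on their median. It was 2 without the dimmest 25% of genes and after a repeated quantile normalization, and 3 after cyclic loess, where 5.1%, 4.62% and 4.51% of the genes tested were called. It was 5 without the genes under the median level, with a variance trend plus robust estimation, and with weighted arrays, with 10.6%, 6.06% and 6.45% called. Without 1 array it was 0 to 2. With the replicate number as a block (replicate block), 0 members and 1.41% of all genes were called and 8 members were at an unadjusted p under 0.05 (limma); the block also ended the calls of Pold4 and Pole4. The filters test fewer genes, and the fits without 1 array have fewer arrays; for the other settings the cause was not tested. The count at an unadjusted p under 0.05 stayed between 7 and 13, and the median change of the members between -0.028 and 0.012, crossing 0, with all genes between -0.021 and 0.022. The log2 change of Dhx9 stayed between -1.02 and -0.96 and was called in all 15. Of the 43 members, 27 kept their sign in all 15 and 16, none of them at an unadjusted p under 0.05, did not. Changes under about 0.12 on the log2 scale are within the usual interval of a member with 3 arrays a group.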
